A study of Mus musculus with 7 samples.

Results

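The chaperones and folding enzymes of the endoplasmic reticulum (ER) were examined in splenic memory B cells (MBCs) and plasma cells (PCs) of the mouse. The set consisted of 40 genes picked by name for their function, with earlier results of these data known. All of them were found by gene symbol among the 48795 Ensembl genes of the deposited table. All 7 libraries were bulk RNA sequencing of cells sorted from spleens of female wild type C57BL/6 mice aged 8 to 12 weeks, 10 days after intravenous injection of sheep red blood cells. The 3 MBC libraries came from cells carrying B220, CD38 and CD273 but neither CD138 nor IgD, and the 4 PC libraries from cells that were low for B220, positive for CD138 and negative for IgD. Both populations had been enriched on CD43 magnetic beads before the sort. The labels did not say whether each library came from 1 mouse or from a pool, so p-values measured the spread between these libraries, part of which may be technical.

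The ER is where secreted and membrane proteins enter the secretory route, fold and receive their disulfide bonds. The Hsp70 chaperone BiP, encoded by Hspa5, binds exposed hydrophobic stretches in cycles that J proteins start and nucleotide exchange factors end, while calnexin and calreticulin hold glycoproteins through their sugars, and disulfide isomerases and prolyl isomerases catalyse slow folding steps. BiP was first described as a protein bound to unassembled immunoglobulin heavy chain, and a plasma cell, which secretes antibody at a high rate, has a greatly expanded ER.

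The libraries differed in ways that touch these values. Immunoglobulin genes took 1.65 to 3.16% of the TPM (transcripts per 1000000) in MBCs and 49.4 to 55.9% in PCs, which lowers every other PC value. Genes of the mitochondrial genome took 33.2, 33.5 and 19.7% in the MBC libraries by replicate number and 8.10 to 9.80% in PCs, again without overlap, which lowers the other MBC values. TPM were therefore divided by a library factor, the median ratio to the geometric mean over 9305 genes above 0 in all libraries, and the result is called scaled TPM. The 6 plasma cell markers, summed, reached 9613 to 16540 scaled TPM in PCs and 149 to 294 in MBCs, and Sdc1, which encodes CD138, was at 0, 0 and 0.0585 in MBCs. The 6 memory B cell markers summed to 362 and 452 in MBC replicates 1 and 2 but to 25.3 in the library labelled MBC replicate 3, within the PC range of 15.3 to 30.3, and the 6 germinal center B cell markers were at 625 there against 232 and 238 in the other MBC libraries. The 4 erythroid markers summed to 2897 in MBC replicate 2 and to at most 72.6 in any other library, carried by the globin genes. Alas2 was at 28.9 in MBC replicate 2 and at most 2.57 in any other library. Klf1 was at 0 in MBC replicate 2 and at most 0.161 in any other library. The 6 T cell markers summed to 0 to 1.08 in MBCs and to 14.6 to 35.2 in PCs. What part these differences play in the results was not tested, and the counts over all members are given also without the library labelled MBC replicate 3.

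Most ER folding genes were higher in PCs than in MBCs. They ranged from the abundant Hsp90b1, Hspa5 and Pdia4 to Creld2, which was low and variable in MBCs, and Fkbp11, which was close to absent there. Of the 40 genes, 35 passed the filter of 1 TPM in at least 3 libraries. Of these, 24 were called higher in PCs and 1, Txndc16, was called lower, a call being a limma adjusted p under 0.05 with a log2 fold change of 1 or more in either direction. The share called higher was 68.6% of the tested members against a background of 6.41% of all 11573 tested genes (742 genes), and the share called lower was 2.86% against 2.14% (248 genes). Because the members were chosen with earlier results known, such shares are a description and not a test of the set. The median log2 fold change, PC minus MBC, was 3.03 over the tested members and 0.14 over all tested genes. Fold changes are on the log2(scaled TPM + 1) scale, on which differences of low genes come out too small. With TPM as deposited the median over all genes was -0.91, with 472 genes called higher and 3018 lower, and the members' median was 1.76, with 22 called higher and 1 lower. The members' median stood 2.89 above that of all genes on the scaled values and 2.67 above it on the deposited ones. Of the 35 tested members, 27 reached 1 TPM in all 3 MBC libraries and only Fkbp11 reached it in none of them, so most did not pass the filter through the PC libraries alone. In bulk RNA, fewer cells of a type and less RNA per cell cannot be told apart.

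The groups did not overlap for most members. Every PC library lay above every MBC library for 26 of the 40 members and for 25 of the 35 tested, or 71.4%, against 13% of all tested genes (1505 genes). Without the library labelled MBC replicate 3, 25 members were called higher against a background of 13.6%, and 1 lower against 7.95%, with a member median of 3.04. Within the 2 MBC and 3 PC libraries whose titles share the more frequent code prefix, 24 were called higher and 1 lower, again with a median of 3.04. This subset leaves out the library labelled MBC replicate 3 and PC replicate 4, so it is not independent of the fit without the former. Among MBCs only that library has the other prefix, so its marker levels and the prefix cannot be told apart. The labels do not say what the prefix marks. Calls for 21 of the 24 higher members were the same in all 17 alternative analyses, and no called member changed sign in any of them. The remaining 3 were Sil1, Canx and Erp29, which lost the call in 3, 14 and 13 of the 17 alternatives.

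**Figure D1:**
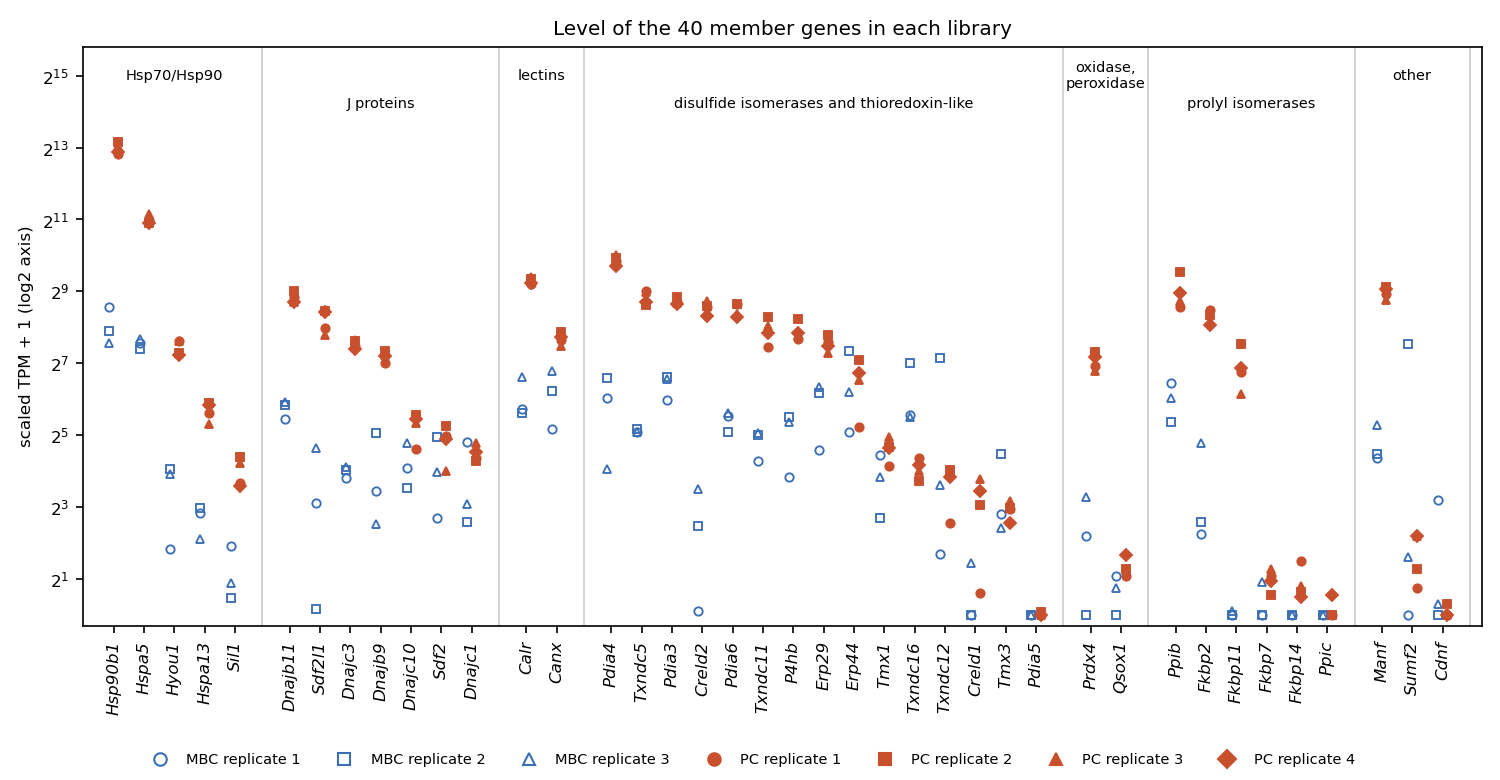
Scaled TPM + 1 on a log2 axis for each of the 40 genes, grouped by role and ordered within a role by the PC mean, with open blue symbols for the 3 MBC libraries and filled red symbols for the 4 PC libraries. Hsp90b1 and Hspa5 stand highest in PCs at means of 8073 and 2032 scaled TPM, and the blue symbols are the more widely spread for most genes.

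Summed, the 40 genes held 0.232, 0.269 and 0.289% of all TPM in the MBC libraries by replicate number, and 1.03, 1.28, 1.44 and 1.17% in the PC libraries. The 2 ranges did not overlap, with means of 0.263% ± 0.0287 (SD, n = 3) and 1.23% ± 0.175 (SD, n = 4). With immunoglobulin genes left out of the total, the shares were 0.240 to 0.294% in MBCs and 2.31 to 2.94% in PCs. Hspa5 and Hsp90b1 accounted for 22.4 to 44.3% of the members' TPM in MBCs and for 57.4 to 60.3% in PCs. Among the 11344 tested genes that are not immunoglobulin genes, Hsp90b1 ranked 6th, Hspa5 14th, Pdia4 42nd and Calr 65th by mean level in PCs, where their MBC ranks were 187, 267, 1003 and 863. There were 6 members among the 100 highest such genes in PCs and 0 in MBCs, and 22 among the 500 highest in PCs and 2 in MBCs.

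MBC libraries agreed less well with each other on these genes than PC libraries did. The median coefficient of variation (SD over mean) of the members was 0.647 in MBCs and 0.168 in PCs, where all tested genes had medians of 0.767 and 0.382. Estimated from the low values, 1 TPM at a transcript length of 1 kb corresponded to 6.37 to 11.6 reads in MBC libraries and to 9.21 to 16.9 in PC libraries. A floor of 3 reads for a transcript of 1 kb came to 0.126 to 0.289 scaled TPM in MBCs and 0.247 to 0.401 in PCs. Of the 40 members, 37 lay above the floor in all 4 PC libraries and 28 in all 3 MBC libraries. In the sentences that follow, values are scaled TPM in the order of replicate number, first the 3 libraries labelled MBC and then the 4 PC libraries.

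The promoters of these genes are known for the ER stress element, CCAAT followed by 9 bases of any kind and CCACG, at which the unfolded protein response factors ATF6 and XBP1 act together with the CCAAT-binding factor NF-Y. Promoters in RefSeq on build GRCm38.p6, from 250 bases before to 50 after each gene start, were searched on both strands. The element was present in 39 of 32851 promoters, or 0.119%, and in those of 7 of the 33 members that the table held. All 7 were called higher, with log2 fold changes from 1.62 to 6.52 and a median of 3.45, though Canx lost its call in 14 of the 17 alternatives. Of the tested genes whose promoters lacked the element, 4.8% were called higher (378 of 7877). The 7 belong to a set picked with earlier results known, of which 68.6% of the tested members were called higher. Of the other 26 members in the table, 22 were tested, 12 of them called higher and 1 lower, with a median of 2.66, so most members without the element were called higher as well. These are descriptions of letters in a window and not of sites in use. Positions are counted from the RefSeq start, which for some genes differs from the GENCODE coordinates given below for whole genes. The match in Hspa5 lies before its RefSeq start but inside the GENCODE gene, which begins at chr2:34771970. The 8 elements, Hsp90b1 having 2, are shown because they let the spacing and the variable middle be compared, each read in the CCAAT to CCACG direction with the fixed parts in capitals, in order of the gene's log2 fold change.
Creld2 (chr15:88819520-88819538, minus strand, 126 to 108 bases before the start): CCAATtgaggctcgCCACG
Hsp90b1 (chr10:86705638-86705656, minus strand, 212 to 194 bases before the start): CCAATcgcaaggagCCACG
Hsp90b1 (chr10:86705533-86705551, plus strand, 107 to 89 bases before the start): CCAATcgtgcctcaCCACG
Dnajc3 (chr14:118937827-118937845, plus strand, 105 to 87 bases before the start): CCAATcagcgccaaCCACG
Hspa5 (chr2:34772025-34772043, plus strand, 65 to 47 bases before the start): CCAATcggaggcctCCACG
Calr (chr8:84847075-84847093, plus strand, 162 to 144 bases before the start): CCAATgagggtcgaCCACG
Pdia6 (chr12:17266491-17266509, plus strand, 98 to 80 bases before the start): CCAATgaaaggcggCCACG
Canx (chr11:50325800-50325818, minus strand, 145 to 127 bases before the start): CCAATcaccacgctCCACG
The 9 bases in the middle differed between all 8 elements, and G or C made up 66.7% of them in 7 elements and 77.8% in that of Hspa5.

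**Figure D2:**
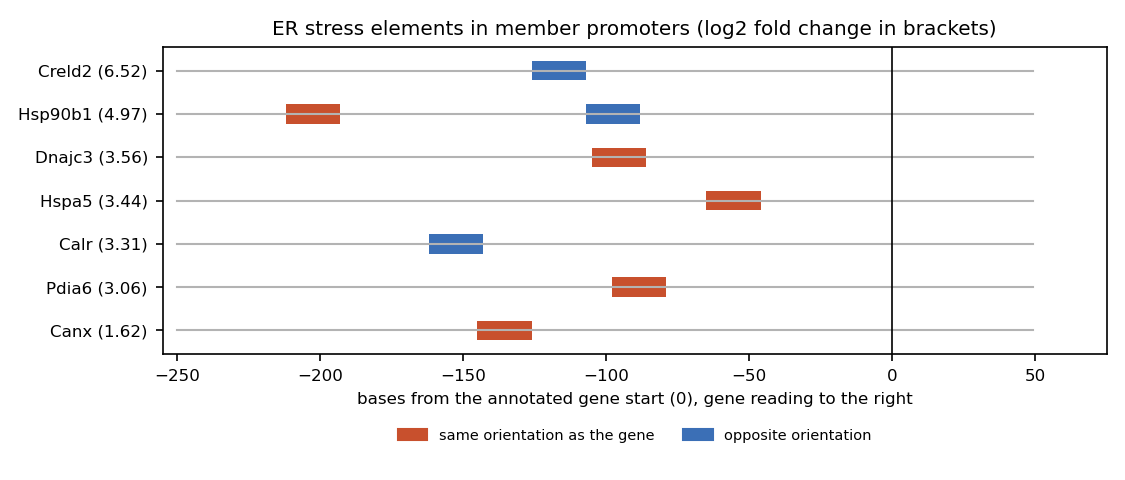
Position of each ER stress element along the promoter window of 7 members, in bases from the gene start annotated in RefSeq at 0, with the log2 fold change of the gene in brackets. Red blocks read in the direction of the gene and blue blocks against it, and all 8 lie between 212 and 47 bases before the start.

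Of the 8 elements, 5 read in the direction of the gene and 3 against it, and Hsp90b1 had 1 of each. The 250 bases before the start are printed for the 4 of these genes with the highest fold changes, in the direction of the gene, with the fixed parts in capitals (CCAAT and CCACG, or CGTGG and ATTGG where the element reads against the gene).
Creld2 (chr15:88819396-88819645, plus strand): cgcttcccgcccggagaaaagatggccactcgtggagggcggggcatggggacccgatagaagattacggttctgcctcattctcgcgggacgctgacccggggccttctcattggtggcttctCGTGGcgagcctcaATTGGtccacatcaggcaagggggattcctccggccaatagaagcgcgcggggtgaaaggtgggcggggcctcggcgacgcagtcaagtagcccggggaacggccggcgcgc
Hsp90b1 (chr10:86705445-86705694, minus strand): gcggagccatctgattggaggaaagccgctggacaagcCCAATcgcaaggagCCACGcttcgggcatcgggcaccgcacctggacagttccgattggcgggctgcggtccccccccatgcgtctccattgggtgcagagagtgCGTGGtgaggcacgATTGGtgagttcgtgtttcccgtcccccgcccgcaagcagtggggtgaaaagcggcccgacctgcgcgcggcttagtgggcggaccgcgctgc
Dnajc3 (chr14:118937682-118937931, plus strand): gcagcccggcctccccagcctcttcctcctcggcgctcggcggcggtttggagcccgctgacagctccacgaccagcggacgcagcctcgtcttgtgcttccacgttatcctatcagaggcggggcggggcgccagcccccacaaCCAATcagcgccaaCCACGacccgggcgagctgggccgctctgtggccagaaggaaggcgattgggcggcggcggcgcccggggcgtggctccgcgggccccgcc
Hspa5 (chr2:34771840-34772089, plus strand): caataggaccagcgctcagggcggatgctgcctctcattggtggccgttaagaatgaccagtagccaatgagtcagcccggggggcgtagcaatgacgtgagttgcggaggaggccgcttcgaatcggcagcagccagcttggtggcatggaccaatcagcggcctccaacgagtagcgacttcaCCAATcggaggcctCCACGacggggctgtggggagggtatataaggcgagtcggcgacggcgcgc
With 1 mismatch allowed in CCACG, 0.998% of all promoters and those of 11 members had a match, adding Pdia3, Pdia4, Erp44 and Creld1. The second ER stress element (ATTGG, 1 base of any kind, CCACG) was in 0.0365% of promoters, Dnajb11 being the only member, and the UPR element TGACGTGG in 0.676%, with Txndc5 and Txndc11. The match in Dnajb11 lay after the gene start and not before it. Of these 7 further genes, Erp44 and Creld1 were not called. Among the 5 tested genes outside the set whose promoters had the ER stress element, Derl3 (log2 fold change 5.53 ± 0.73 SE, limma adjusted p = 0.00132) and Syvn1 (1.61 ± 0.34 SE, limma adjusted p = 0.0187), both of ER-associated degradation, were called higher. Pan2, Alg12 and Hnrnpa3 were not called, and the median log2 fold change of the 5 was 0.28.

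The Hsp70 and Hsp90 chaperones and their exchange factors all rose, 5 of 5, with log2 fold changes from 2.88 to 4.97. Hsp90b1 (chr10:86690209-86705509, minus strand), the ER member of the Hsp90 family, was at 376, 239 and 187 in MBCs and at 7225, 9121, 8398 and 7548 in PCs. All PC libraries were above all MBC libraries (log2 fold change 4.97 ± 0.35 SE, limma adjusted p = 5.4e-05). Hspa5 (chr2:34771970-34777547, plus strand) was at 189, 167 and 202 in MBCs, among the tightest values of any member there, and at 2025, 1915, 2269 and 1921 in PCs (log2 fold change 3.44 ± 0.28 SE, limma adjusted p = 9.1e-05). The groups did not overlap for Hspa5 either. Hsp90b1 TPM divided by Hspa5 TPM was 1.99, 1.44 and 0.926 in the MBC libraries and 3.57, 4.76, 3.70 and 3.93 in the PC libraries, a ratio looked at after the values had been seen and therefore not tested. Hsp90b1 exons overlap those of 1810014B01Rik on the other strand and of Gm15344 and Gm25745 on the same strand, and whether reads were counted by strand was not stated.

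Hyou1, an Hsp110-type exchange factor for BiP, was at 2.57, 15.7 and 14 in MBCs and 196, 156, 195 and 150 in PCs. No values overlapped, and the lowest MBC library was replicate 1 (log2 fold change 4.17 ± 0.53 SE, limma adjusted p = 0.00106). Sil1, the other exchange factor for BiP, was low in both groups, at 2.78, 0.391 and 0.853 in MBCs and 11.8, 20.0, 17.8 and 11.0 in PCs. The groups were apart by a wide margin (log2 fold change 2.88 ± 0.54 SE, limma adjusted p = 0.00953), but the call was lost without PC replicate 2 (log2 fold change 2.79, limma adjusted p = 0.0538). Both blocked fits lost the call of Sil1 too, that with the replicate number as the block (3.01, limma adjusted p = 0.0776) and that with the title code (2.74, limma adjusted p = 0.0839). Hspa13, a small Hsp70-like protein of the microsomes, was at 6.10, 6.81 and 3.29 in MBCs and 48.1, 58.6, 38.6 and 56.3 in PCs, again without overlap (log2 fold change 3.03 ± 0.39 SE, limma adjusted p = 0.00118).

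**Figure D3:**
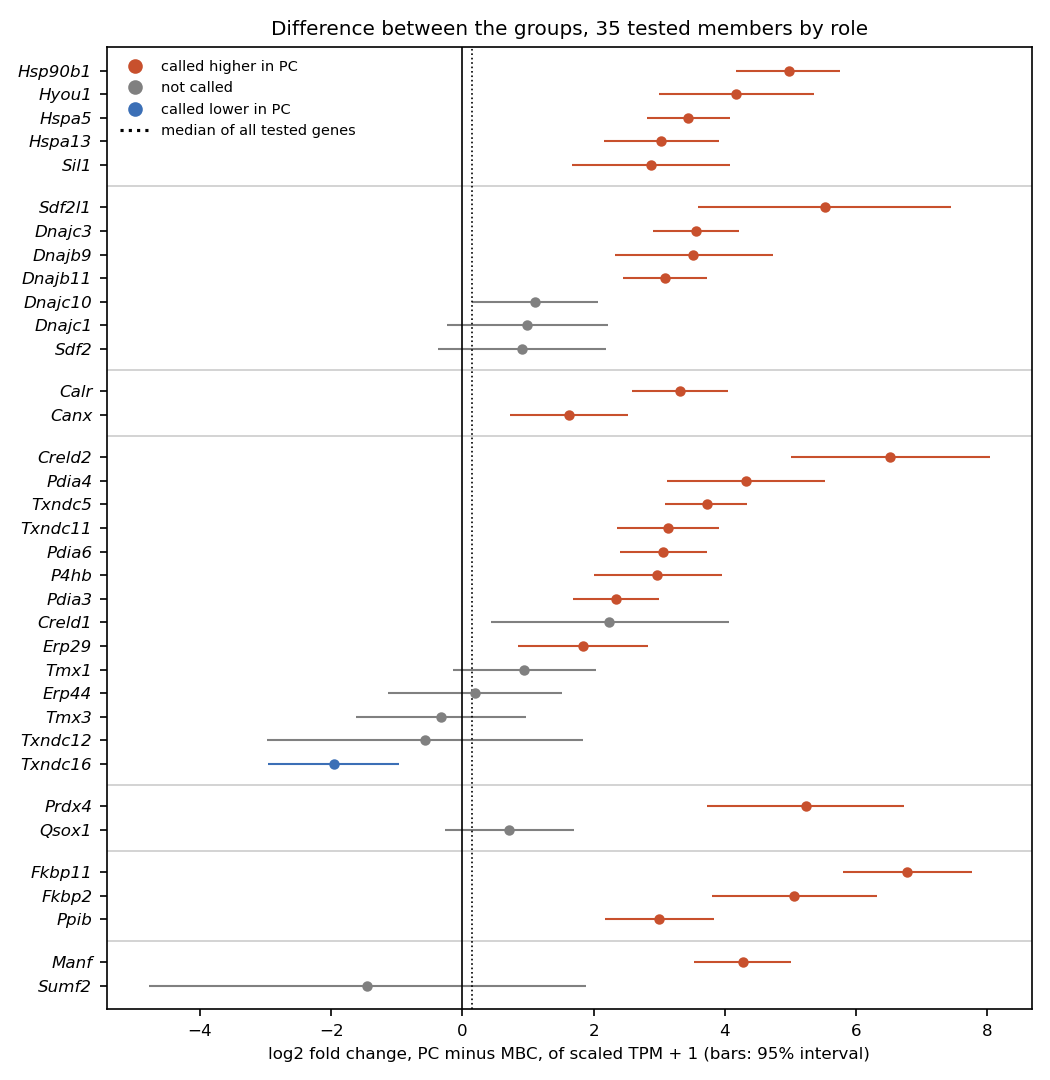
Log2 fold change, PC minus MBC, of scaled TPM + 1 for the 35 tested members in blocks by role, in the order Hsp70 and Hsp90 chaperones, J proteins and partners, lectins, disulfide isomerases and thioredoxin-like proteins, oxidase and peroxidase, prolyl isomerases, and others, with 95% intervals as bars. Red marks the 24 genes called higher, blue the 1 called lower and grey the 10 not called, and the dotted line is the median of all tested genes at 0.14.

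The J proteins, which bring substrates to BiP and trigger its ATPase, were split between genes called higher and genes not called. Of 7 J proteins and partners, 4 were called higher and 3 (Dnajc1, Dnajc10 and Sdf2) were not called. Dnajc3, also known as p58IPK, was at 13.0, 15.4 and 16.3 in MBCs and 178, 197, 200 and 168 in PCs, with little spread in either group (log2 fold change 3.56 ± 0.29 SE, limma adjusted p = 9.1e-05). Dnajb11, or ERdj3, which binds unfolded immunoglobulin heavy chain, was at 42.5, 55.7 and 60.0 in MBCs and 455, 511, 414 and 417 in PCs (log2 fold change 3.08 ± 0.29 SE, limma adjusted p = 1.6e-04). Both genes were higher in every PC library. Dnajb9, or ERdj4, was at 9.92, 32.3 and 4.72 in MBCs, where replicate 2 was over 3 times both other libraries, and at 127, 162, 150 and 145 in PCs (log2 fold change 3.52 ± 0.54 SE, limma adjusted p = 0.00310).

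Sdf2l1, a partner of ERdj3, had the largest difference of this role group. It was at 7.72, 0.108 and 24.0 in MBCs and 252, 347, 220 and 340 in PCs (log2 fold change 5.52 ± 0.86 SE, limma adjusted p = 0.00353). The MBC libraries ranged from below the floor in replicate 2 to 24.0 in the library labelled MBC replicate 3, and without the latter the log2 fold change was 6.44. Its relative Sdf2 was at 5.42, 30.0 and 14.8 in MBCs and 30.5, 37.4, 15.1 and 28.5 in PCs. Values of the groups interleaved, and Sdf2 was not called (log2 fold change 0.91, 95% interval -0.37 to 2.19, limma adjusted p = 0.366). Dnajc1, or ERdj1, which sits at the translocon, was at 26.9, 4.94 and 7.53 in MBCs and 19.6, 18.3, 26.5 and 22.0 in PCs. Its MBC replicate 1 exceeded every PC value (interval -0.24 to 2.22, limma adjusted p = 0.304). Dnajc10, or ERdj5, a J protein that also reduces disulfide bonds, was at 16.1, 10.6 and 26.4 in MBCs and 23.5, 46.5, 39.3 and 43.0 in PCs. PC replicate 1 lay below the library labelled MBC replicate 3, and the gene was not called with all libraries (interval 0.15 to 2.07, limma adjusted p = 0.15) but was called higher without that MBC library (log2 fold change 1.42, limma adjusted p = 0.0398). With TPM as deposited the estimates of Dnajc1, Dnajc10 and Sdf2 were below 0, at -0.24, -0.16 and -0.34, and none was called.

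Both lectin chaperones were called higher, Calr firmly and Canx narrowly. Calr, the soluble calreticulin, was at 52.1, 48.2 and 96.4 in MBCs and 593, 647, 678 and 595 in PCs (log2 fold change 3.31 ± 0.33 SE, limma adjusted p = 2.4e-04). Canx, the membrane-bound calnexin, was at 34.9, 73.3 and 110 in MBCs and 198, 235, 178 and 210 in PCs (log2 fold change 1.62 ± 0.40 SE, limma adjusted p = 0.0347). The lowest PC value of Canx, 178, was above the highest MBC value, 110, which came from the library labelled MBC replicate 3, and without that library the log2 fold change was 1.99. The call for Canx was lost without any 1 of the other 6 libraries, with log2 fold changes of 1.16 to 1.69. It was also lost with TPM as deposited, where the fold change was 0.31. Inside each library the log2 ratio of calreticulin to calnexin was 0.57, -0.60 and -0.18 in MBCs and 1.58, 1.46, 1.92 and 1.5 in PCs. Calreticulin was thus higher relative to calnexin in every PC library than in any MBC library (difference 1.68, exact two-sided permutation p = 0.0286, adjusted p = 0.0393 over 11 pairs).

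Disulfide isomerases and thioredoxin-like proteins were the largest role group and the most mixed, with 8 of 14 tested members called higher, 1 lower and 5 not called. Creld2, an ER protein that is induced by ER stress and interacts with isomerases, was at 0.0768, 4.55 and 10.4 in MBCs and 375, 388, 428 and 316 in PCs. This was the widest gap of the group (log2 fold change 6.52 ± 0.68 SE, limma adjusted p = 3.1e-04), with MBC replicate 1 below the floor and the lowest PC library at 316. Its relative Creld1 was at 0, 0 and 1.72 in MBCs and 0.535, 7.33, 12.8 and 9.80 in PCs. PC replicate 1 was inside the MBC range, and Creld1 was not called (limma adjusted p = 0.127), though it was called higher without PC replicate 1 (log2 fold change 3.04). Creld1 was at 0 in MBC replicates 1 and 2.

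Among the classical isomerases, Pdia4, or ERp72, was at 64.3, 95.4 and 15.5 in MBCs and 922, 974, 1038 and 838 in PCs (log2 fold change 4.32 ± 0.54 SE, limma adjusted p = 9.4e-04). The library labelled MBC replicate 3 was the lowest, and without it the fold change was 3.57. Pdia3, or ERp57, which works with the lectin chaperones, was at 61.4, 96.9 and 93.8 in MBCs and 419, 455, 408 and 400 in PCs (log2 fold change 2.34 ± 0.29 SE, limma adjusted p = 0.00102). P4hb, the founding protein disulfide isomerase, was at 13.4, 44.7 and 40.1 in MBCs and 205, 299, 215 and 230 in PCs (log2 fold change 2.97 ± 0.43 SE, limma adjusted p = 0.00246), and Pdia6 at 45.4, 33.1 and 48.2 in MBCs and 397, 399, 328 and 311 in PCs (log2 fold change 3.06 ± 0.30 SE, limma adjusted p = 2.0e-04). None of these 4 genes showed overlap between groups. Txndc5 was the most even of all members in MBCs, at 33.3, 34.8 and 32.7, and was at 518, 391, 500 and 416 in PCs (log2 fold change 3.72 ± 0.28 SE, limma adjusted p = 5.8e-05). Txndc11, a membrane-bound thioredoxin-like protein, was at 18.4, 30.9 and 32.1 in MBCs and 173, 313, 264 and 227 in PCs (log2 fold change 3.13 ± 0.35 SE, limma adjusted p = 4.6e-04).

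Erp29, an isomerase-like protein without the active-site cysteine pair, was at 23.1, 71.6 and 79.3 in MBCs and 193, 220, 155 and 177 in PCs (log2 fold change 1.84 ± 0.44 SE, limma adjusted p = 0.0317). The groups did not overlap, the nearest values being 79.3 and 155, but the call was lost without MBC replicate 1 (log2 fold change 1.26) and without any 1 of the PC libraries, where the fold changes stayed at 1.76 to 1.93. With TPM as deposited the fold change of Erp29 was 0.53 (limma adjusted p = 0.400). Erp44, which retrieves unassembled IgM and escaped oxidases from the Golgi, was at 32.7, 160 and 72.8 in MBCs and 36.7, 135, 91.1 and 105 in PCs. Its values overlapped widely, with the highest in MBC replicate 2 and the 2 lowest in MBC replicate 1 and PC replicate 1 (log2 fold change 0.19, interval -1.14 to 1.52, limma adjusted p = 0.875). The sign for Erp44 turned under 7 of the 17 alternatives. The log2 ratio of Erp44 to Erp29 was 0.49, 1.15 and -0.12 in MBCs and -2.35, -0.70, -0.76 and -0.75 in PCs, lower in all PC libraries (difference -1.65, exact two-sided permutation p = 0.0286, adjusted p = 0.0393).

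Txndc16 (chr14:45133465-45220328, minus strand), a thioredoxin-domain glycoprotein whose role is less well known, was the 1 member called lower. It was at 46.6, 127 and 44.3 in MBCs and 19.5, 12.1, 15.1 and 17.0 in PCs (log2 fold change -1.96 ± 0.45 SE, limma adjusted p = 0.0251). Every MBC library was above every PC library, with MBC replicate 2 the highest by far. The fold change was -1.5 without MBC replicate 2 and still called, but the call was lost without any 1 of the 4 PC libraries, at -2.05 to -1.84. Its exons overlap Gpr137c on the other strand, so reads of the 2 genes cannot be told apart where the counting ignored strand.

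The remaining thioredoxin-like genes did not pass. Txndc12, or ERp18, was at 2.24, 140 and 11.2 in MBCs and 4.83, 15.2, 14.1 and 13.2 in PCs, where MBC replicate 2 stood apart (log2 fold change -0.57, interval -2.98 to 1.84, limma adjusted p = 0.790). The estimate was 0.89 without that library. Tmx3, a membrane-bound oxidoreductase, was at 6.00, 21.3 and 4.35 in MBCs and 6.64, 6.88, 7.92 and 4.82 in PCs, with the same library on top (interval -1.63 to 0.97, limma adjusted p = 0.770) and an estimate of 0.26 without it. Tmx1, another transmembrane member, was at 20.7, 5.48 and 13.2 in MBCs and 16.6, 24.6, 29.6 and 23.8 in PCs (interval -0.15 to 2.03, limma adjusted p = 0.275). PC replicate 1 lay below MBC replicate 1 for Tmx1, and the other 3 PC libraries were above all MBC libraries. MBC replicate 2, where the erythroid markers summed to 2897, was more than 3 times both other MBC libraries for 4 of the 35 tested members (Dnajb9, Txndc12, Tmx3 and Sumf2), and for 8.68% of all tested genes. Pdia5 was listed at 0 in all libraries but PC replicate 2, at 0.0595, below the floor.

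Of the thiol oxidase and the peroxidase, Prdx4 was called higher and Qsox1 was not. Prdx4, the ER peroxiredoxin that passes oxidising equivalents to disulfide isomerases, was at 3.60, 0 and 8.70 in MBCs and 120, 158, 110 and 144 in PCs (log2 fold change 5.23 ± 0.67 SE, limma adjusted p = 0.00115). MBC replicate 2 was listed at 0, and all PC libraries were far above the highest MBC value. Qsox1, a sulfhydryl oxidase of the later secretory route, was low in both groups. It was at 1.13, 0 and 0.672 in MBCs and 1.13, 1.41, 1.41 and 2.17 in PCs. The highest MBC and the lowest PC value of Qsox1 both rounded to 1.13, and the difference did not pass (log2 fold change 0.71, interval -0.27 to 1.70, limma adjusted p = 0.359).

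The prolyl isomerases held the largest single difference of the set. Fkbp11 (chr15:98724366-98728198, minus strand), a membrane-anchored FK506-binding protein found in secretory tissue, was at 0, 0 and 0.0828 in MBCs and 107, 184, 69.1 and 116 in PCs. No MBC library was above its floor, so the PC mean of 119 was at least 411-fold higher than the highest MBC floor of 0.289, for a transcript of 1 kb, and the fitted value (log2 fold change 6.78 ± 0.44 SE, limma adjusted p = 3.6e-05) depends on the added 1. Fkbp2, a small soluble ER relative, was at 3.79, 5.01 and 26.4 in MBCs and 359, 326, 290 and 265 in PCs (log2 fold change 5.06 ± 0.56 SE, limma adjusted p = 4.5e-04). The library labelled MBC replicate 3 was the highest MBC library for Fkbp2, and the fold change was 5.82 without it. Ppib, cyclophilin B, was at 86.1, 40.2 and 63.9 in MBCs and 378, 749, 424 and 492 in PCs, with PC replicate 2 the highest (log2 fold change 3.0 ± 0.37 SE, limma adjusted p = 9.3e-04).

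The other prolyl isomerases were not tested because of their low values. Ppic was listed at 0 in all libraries except PC replicate 4, at 0.474. Fkbp7 was at 0, 0 and 0.872 in MBCs and 1.10, 0.461, 1.41 and 0.920 in PCs, with the library labelled MBC replicate 3 inside the PC range. Fkbp14 was at 0, 0 and 0 in MBCs and 1.84, 0.55, 0.738 and 0.404 in PCs, above the floor in all 4 PC libraries and listed at 0 in all MBC libraries. Its PC mean of 0.883 was at least 3.05-fold higher than the highest MBC floor.

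Manf, Cdnf and Sumf2 completed the set. Manf, a secreted ER-stress protein that binds BiP, was at 19.4, 21.3 and 38.2 in MBCs and 489, 560, 430 and 538 in PCs, without overlap (log2 fold change 4.27 ± 0.33 SE, limma adjusted p = 6.2e-05). Its relative Cdnf was at 8.08, 0 and 0.224 in MBCs and 0, 0.238, 0 and 0 in PCs, under the filter, and its only value well above the floor came from MBC replicate 1. Sumf2, a relative of the formylglycine-generating enzyme that modifies sulfatases in the ER, was at 0, 184 and 2.07 in MBCs and 0.661, 1.44, 3.54 and 3.58 in PCs. The value in MBC replicate 2 stood apart from all others, the interval of the log2 fold change ran from -4.78 to 1.88 (limma adjusted p = 0.598), and the estimate moved from -1.45 to 0.76 without that library.

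Related genes were compared through the log2 ratio of TPM + 1 inside each library. The library factor cancels in such a ratio only where both genes are well above the pseudocount, so the ratios were also taken on scaled TPM, an alternative added after the data had been seen. The same 8 pairs were without overlap on that scale. Of 11 pairs, 8 gave ratios without overlap between groups, each with an exact two-sided permutation p of 0.0286, the smallest that 35 assignments of 3 and 4 libraries allow, and an adjusted p of 0.0393 over the 11. Sdf2l1 over Sdf2 was 0.47, -5.29 and 0.68 in MBCs and 2.99, 3.17, 3.76 and 3.51 in PCs, a difference of 4.74. Sdf2l1 was near the level of Sdf2 in 2 MBC libraries, far below it in MBC replicate 2 and well above it in all PC libraries. Creld2 over Creld1 was 0.19, 2.95 and 2.30 in MBCs and 7.48, 5.47, 4.93 and 4.83 in PCs, a difference of 3.86, and Manf over Cdnf was 1.21, 5.02 and 5.76 in MBCs and 8.29, 8.35, 8.45 and 8.60 in PCs, a difference of 4.42. Cdnf was under the filter and near 0 outside MBC replicate 1, so in the other libraries this ratio restates Manf, and on scaled TPM the difference was 5.35. Creld1 was at 0 in MBC replicates 1 and 2, so there the Creld ratio restates Creld2, which was itself below the floor in MBC replicate 1. On scaled TPM the difference for Creld2 over Creld1 was 4.28. In these 3 pairs the first gene is the one known to be induced by ER stress.

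Pdia4 over Pdia3 was 0.07, -0.02 and -2.56 in MBCs and 1.13, 1.10, 1.35 and 1.06 in PCs, a difference of 2.00, and the PC values were close together. Ppib over Ppic differed by 1.59, and by 2.86 on scaled TPM, with Ppic near 0 throughout, so that ratio restates Ppib and carries the library factor. Fkbp2 over Fkbp11 was 2.98, 3.08 and 5.56 in MBCs and 1.73, 0.82, 2.05 and 1.19 in PCs, lower in PCs by a difference of -2.43, and -5.21 with a pseudocount of 0.1 in place of 1, since Fkbp11 was at or near 0 in MBCs. On scaled TPM it was -1.72. The log2 ratio of Hspa5 to Hspa13 was 4.83, 4.48 and 5.74 in MBCs and 5.35, 5.00, 5.83 and 5.06 in PCs, with overlap and a difference of 0.29 (exact two-sided permutation p = 0.486). Both genes of that pair were called higher. Tmx1 over Tmx3 (difference 1.19, exact p = 0.229) and Fkbp7 over Fkbp14 (difference -0.40, exact p = 0.571) also overlapped.

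**Figure D4:**
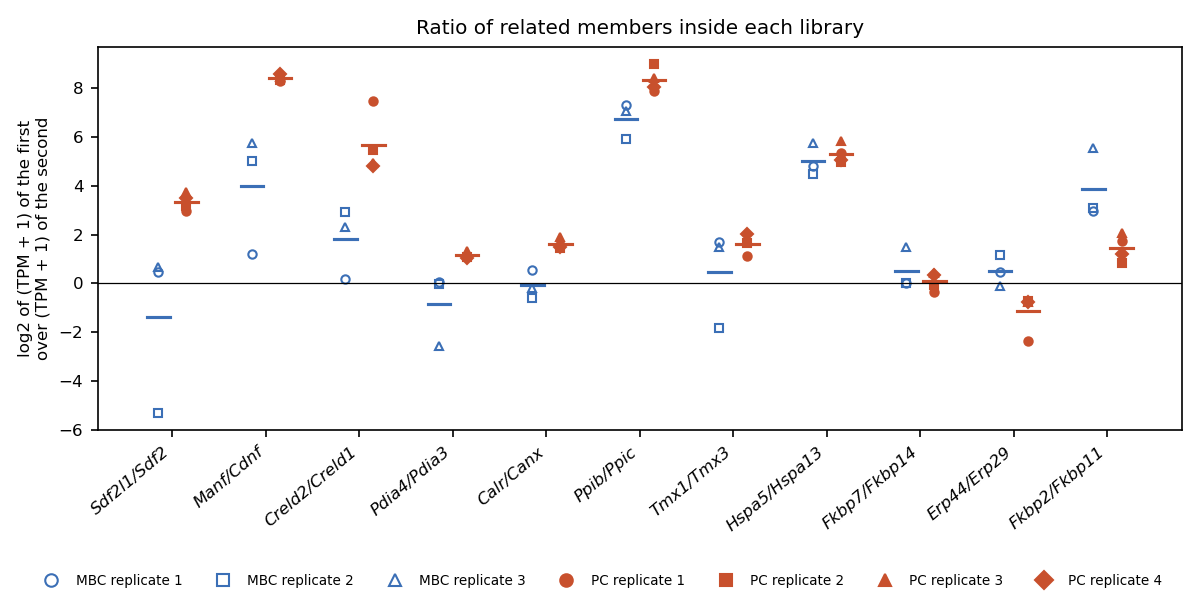
Log2 ratio of TPM + 1 of the first to the second gene of 11 related pairs in each library, with open blue symbols for MBCs, filled red symbols for PCs and bars at the group means. The groups are apart in 8 pairs, from a difference of 4.74 for Sdf2l1 over Sdf2 to -2.43 for Fkbp2 over Fkbp11.

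Lists of genes that work beside the set were examined in the same fit, with the same background of 6.41% called higher and 2.14% lower. Without the library labelled MBC replicate 3 the background was 13.6% higher and 7.95% lower, and with TPM as deposited 4.08% and 26.1%. Among factors of the unfolded protein response, the pathway that raises folding capacity, 10 of 16 tested genes were called higher and 0 lower, with a median log2 fold change of 2.36. The number called higher was 12 without the library labelled MBC replicate 3, 6 without MBC replicate 1 or 2, 5 without PC replicate 3 and 4 without PC replicate 1, 2 or 4, and it was 5 with TPM as deposited. The 3 largest were Creb3l2 (6.08), Xbp1 (4.07) and Ern1 (3.71), the last of which encodes the sensor IRE1 that splices Xbp1 mRNA. Xbp1 was at 58.3, 56.0 and 35.9 in MBCs and 751, 1041, 756 and 843 in PCs (log2 fold change 4.07 ± 0.31 SE, limma adjusted p = 5.8e-05). Eif2ak3, which encodes the sensor PERK, was at 19.2, 30.6 and 19.4 in MBCs and 24.1, 28.7, 35.1 and 21.5 in PCs, with overlap, and was not called (log2 fold change 0.24 ± 0.37 SE, limma adjusted p = 0.734).

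Of 19 tested genes of the calnexin cycle and other ER folding functions, 8 were called higher and 0 lower, with a median of 1.75. The number called higher was 9 without the library labelled MBC replicate 3, 5 without PC replicate 1, 3 or 4, 5 with the replicate number as a block and 4 with TPM as deposited. The largest were Mzb1, a plasma cell ER protein that assists IgM assembly (5.17), the cargo receptor partner Mcfd2 (3.60) and the cargo receptor Lman1 (3.59). Mzb1, like Xbp1 above, is also 1 of the 6 plasma cell markers summed earlier. Of 10 tested redox partners of the isomerases, 2 were called higher, Selenos (4.51) and Selenof (2.88), and 0 lower (4 and 1 without the same library). The oxidases Ero1a (log2 fold change 1.81 ± 0.49 SE, limma adjusted p = 0.0523) and Ero1b (log2 fold change 1.14 ± 0.35 SE, limma adjusted p = 0.0836), which recharge disulfide isomerases, were not called with all libraries but were called higher without that library, at 1.90 and 1.25.

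Chaperones of the cytosol and mitochondria, which fold proteins outside the ER, were examined in the same way. Of 38 tested genes, 0 were called in either direction by limma, with 6 higher and 1 lower at an unadjusted p under 0.05, and their median log2 fold change was 0.36. Hspa8, the constitutive cytosolic Hsp70, was at 502, 605 and 822 in MBCs and 490, 602, 596 and 710 in PCs, and Hsp90ab1, the cytosolic Hsp90, at 423, 656 and 529 in MBCs and 412, 360, 452 and 480 in PCs. Both overlapped between groups. Hspa5 was below Hspa8 in all 3 MBC libraries and above it in all 4 PC libraries, and likewise Hsp90b1 beside Hsp90ab1. These 2 cytosolic genes, like Eif2ak3, Ero1a and Ero1b above, were picked after their values had been seen. Without the library labelled MBC replicate 3, 7 of the 38 cytosolic and mitochondrial chaperones were called higher, or 18.4% against 13.6% of all genes. With TPM as deposited 14 were called lower, or 36.8% against 26.1%.

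**Figure D5:**
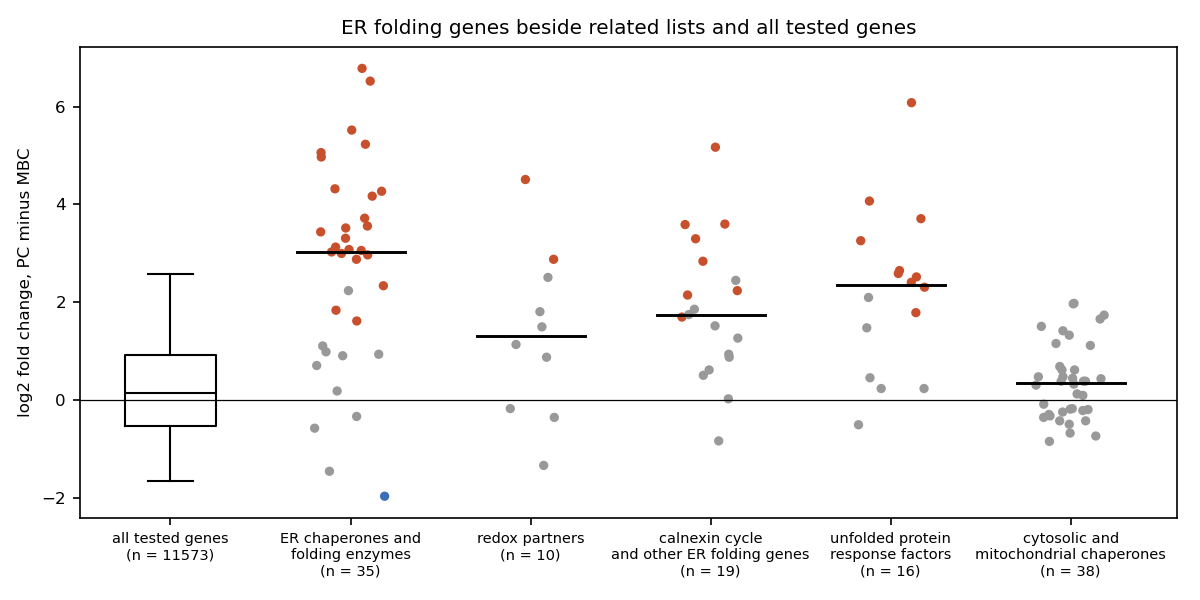
Log2 fold change, PC minus MBC, of the 35 tested ER folding genes beside 4 related lists, 1 point a gene with the median as a bar, and beside all 11573 tested genes as a box (quartiles, with whiskers at the 5th and 95th percentiles). Red points were called higher, blue lower and grey not called, and the medians were 3.03 for the ER folding genes, 2.36 for the unfolded protein response factors and 0.36 for cytosolic and mitochondrial chaperones.

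Some members share sequence positions with other genes in the annotation. Exons of 18 members overlap another gene on the same or the other strand, of which 17 were tested, with 11 called higher and 1 lower. Of the 22 members without overlap, 18 were tested, with 13 called higher and 0 lower. Median log2 fold changes were 3.19 without and 2.88 with such overlap.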

How the data were processed

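The authors deposited TPM (reads divided by transcript length and scaled to a library total of 1000000) for 48795 Ensembl genes in 7 libraries, 3 MBC and 4 PC. The submitters' processing notes name STAR 2.5.2a, RSEM 1.3.0, DESeq2 1.18.1 and build GRCm38. Libraries were made with a Nugen cDNA kit. Neither read totals nor the use of strand is given in the sources used here. TPM share 1 total, so a family that fills a library lowers all other values. Symbols came from GENCODE M21 on GRCm38 and matched 48349 genes, and promoters came from RefSeq.

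Sample descriptions gave the group and the replicate number. TPM were scaled as described, and genes reaching 1 TPM in 3 or more libraries (11573) entered a fit of log2(scaled TPM + 1) in limma 3.58.1 (R 4.3.3, eBayes with a trend, Benjamini-Hochberg over all tested genes, no covariate). Pairs used an exact two-sided permutation test. All 40 members are reported. Values per library were to be given for the extremes of each role, members not called higher, untested members and pairs, and of each other list up to 3 called genes were to be named. The members and lists were chosen with earlier results of these data known. The limma and depth procedures were tested on simulated data, and the depth estimate was added after the data were seen. It took, for genes with 1 transcript, the worth of 1 read at which 69.0 to 79.7% of low values lay within 0.15 of a whole number, where 30% would by coincidence. Floors cover counting error only. Alternatives were other scalings, a pseudocount of 0.1, no filter, no trend, each library left out, 2 replicate blocks and 1 title prefix. Protein sequences were not used here. Python 3.11.15, pandas 2.3.3, numpy 2.4.6, scipy 1.17.1 and matplotlib 3.10.9 were used for the remaining steps.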

Additional observations from a re-analysis of the deposited data

Results flagged for a closer look

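Among 52 sets of 4 PC values, those of members and pairs included, 4 held a library far from the other 3 by Dixon's criterion, the gap over the range. About 2.6 would be flagged by chance, but that number does not cover sets with 3 values at 0. There the criterion is 1.000 whatever the remaining value, as for Pdia5, Cdnf and Ppic. The log2 ratio of Erp44 to Erp29 was -2.35 in PC replicate 1 and -0.76 to -0.70 in the other PC libraries. Pdia5 was at 0.0595 scaled TPM in PC replicate 2 and 0 in the others, and Cdnf was at 0.238 in PC replicate 2 and 0 in the others, both below the floor. Ppic was at 0.474 scaled TPM in PC replicate 4, above the floor of that library, and 0 in the others.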

How the results depend on the processing

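Across 17 alternatives and 35 tested members, 556 of 595 combinations left the call as it was, 37 lost it, 2 gained it and 0 turned the sign of a call. Members called higher numbered 21 to 25. The 1 member called lower, Txndc16, lost its call (0 called lower) without the filter on low values, with either replicate block and without any 1 of the PC libraries, so that leaving out a library gave 0 to 1. The members' median log2 fold change, 3.03, was 1.76 with TPM as deposited, 2.80 without immunoglobulin genes, 2.61 without immunoglobulin and mitochondrial genes and 2.63 with quantile normalization. Their share of TPM differed by 0.966 percentage points, by 2.31 without immunoglobulin genes in the total and by 2.79 without those of the mitochondrial genome as well. The pair Fkbp7 over Fkbp14 moved to -1.18 with a pseudocount of 0.1. The cause of these moves was not tested.

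Of redox partners, 1 was called higher and 2 lower with TPM as deposited, 1 higher with a pseudocount of 0.1 and 1 without the filter, and leaving out 1 library gave 2 to 4 higher and 0 to 1 lower. Of calnexin cycle and other ER folding genes, 4 were called higher and 1 lower with TPM as deposited, 5 higher without immunoglobulin and mitochondrial genes, 5 with the replicate block, and 5 to 9 with 1 library left out. Of unfolded protein response factors, 5 were called higher and 1 lower with TPM as deposited, 6 higher without immunoglobulin and mitochondrial genes, 3 without the filter, 4 and 5 with the replicate and title code blocks, 6 within the title prefix, and 4 to 12 with 1 library left out. Of cytosolic and mitochondrial chaperones, 14 were called lower with TPM as deposited, 1 without immunoglobulin and mitochondrial genes and 2 with quantile normalization, and 3 were called higher within the title prefix and 0 to 7 with 1 library left out, the 7 without the library labelled MBC replicate 3.

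Of all genes, 742 were called higher and 248 lower. These counts were 472 and 3018 with TPM as deposited, 393 and 431 without immunoglobulin genes, 352 and 557 without immunoglobulin and mitochondrial genes, and 437 and 123 without the filter. Quantile normalization gave 460 lower and the title prefix 415. Leaving out 1 library gave 453 to 1572 higher and 91 to 920 lower, the highest of each without the library labelled MBC replicate 3. Same-numbered MBC and PC libraries had correlations of 0.109, -0.0398 and -0.0832 between their deviations from the group means. The main fit and the permutation tests used no pairing, neither by replicate number nor by title code. In the titles, 3 codes each occurred in 1 MBC and 1 PC library, with correlations of 0.109, -0.00436 and 0.222, and the labels do not say what a code marks. With the replicate number as a block 390 genes were called higher and 60 lower, and 21 members higher, and with the title code as the replicate block 434, 83 and 21.

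Depth limits what can be said of low genes. In MBCs a gene below 0.126 to 0.289 scaled TPM is not distinguishable from absent at 1 kb, which touches Fkbp11, Fkbp14, Pdia5 and Ppic in all 3 MBC libraries. Creld2, Sdf2l1, Prdx4, Qsox1, Sumf2 and Cdnf were above the floor in only 2 MBC libraries, and Creld1 and Fkbp7 in only 1. Which of 2 overlapping genes a read was given to is not known, and 3 against 4 libraries cannot give an exact p below 0.0286.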
